A study of Homo sapiens with 8 samples.

Results

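The sites described here are 288 intronic starts of transcription that were listed for proliferating and not for senescent IMR90 cells, a human lung fibroblast line. They were taken from a list of 400 such sites by position alone. A site was kept where its midpoint lay inside a gene of the GENCODE 44 annotation, over 1 kb from every annotated transcript start and outside every exon. Of the other 112 sites, 67 lay near annotated starts, 40 in exons and 5 outside genes. The series holds 1249 sites in all, and the 704 intronic sites of its senescent list served as the comparison. In 282 of the 288 sites the whole width of 150 bases lay outside exons.

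The series mapped nascent RNA by run-on labelling in 8 libraries of IMR90 cells, without any genetic change named in the labels. PRO-seq, which maps engaged RNA polymerase, was made once from proliferating cells at population doubling 20 and once from senescent cells at population doubling 76. PRO-cap, which keeps the capped 5′ ends of the same RNA, gave 3 libraries of proliferating cells (population doubling 23, 26 A and 26 B) and 3 of senescent cells (population doubling 76, 67 A and 67 B). All cells were grown at 3% oxygen, and senescence was reached by serial passage until growth stopped, so that the states also differ in age in culture. The deposited lists hold 1 value per site and none per library. No value below therefore has a spread between cultures, and every interval and p-value counts sites or regions and covers counting error only.

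RNA polymerase II starts transcription not only at promoters but also at enhancers, many of which lie in introns. Enhancers and promoters commonly start transcription in both directions from a pair of core promoters that face away from each other, and the antisense and enhancer RNAs are short-lived, which is why capped nascent RNA is used to see them. A start usually falls on a purine preceded by a pyrimidine, most often on the A of CA, called the initiator, and a TATA box or an A/T-rich stretch can stand upstream of it. Transcription factors bind mostly just upstream of the start. SRF, the serum response factor, binds the CArG box and controls immediate early and actin cytoskeleton genes with its actin-sensing partners of the MRTF family.

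The sequences of 9 sites with a CArG box come first, because this motif set the proliferating intronic sites most apart from the senescent ones. Each sequence is the deposited site of 150 bases in the hg19 (GRCh37) build, read 5′ to 3′ on the strand on which the central bases read pyrimidine then purine. Capitals mark the CArG boxes and that central pair, whose purine is the presumed start base.
SYT1, chr12:79803534-79803683, forward strand: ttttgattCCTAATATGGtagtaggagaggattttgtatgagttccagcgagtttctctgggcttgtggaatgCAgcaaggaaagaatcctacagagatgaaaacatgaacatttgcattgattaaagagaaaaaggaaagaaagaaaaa
SH3BGRL, chrX:80514586-80514735, reverse strand: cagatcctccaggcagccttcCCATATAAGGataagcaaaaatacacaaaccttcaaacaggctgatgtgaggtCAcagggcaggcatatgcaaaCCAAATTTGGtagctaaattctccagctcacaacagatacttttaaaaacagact
SH3BGRL, chrX:80514686-80514835, forward strand: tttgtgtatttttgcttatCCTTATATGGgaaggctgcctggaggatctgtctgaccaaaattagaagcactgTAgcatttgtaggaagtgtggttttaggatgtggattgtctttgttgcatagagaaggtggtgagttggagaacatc
BCL9, chr1:147077479-147077628, reverse strand: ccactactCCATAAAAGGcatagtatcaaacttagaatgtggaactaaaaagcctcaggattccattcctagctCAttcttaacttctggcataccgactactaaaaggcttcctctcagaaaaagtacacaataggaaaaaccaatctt
PPP1R12B, chr1:202474675-202474824, reverse strand: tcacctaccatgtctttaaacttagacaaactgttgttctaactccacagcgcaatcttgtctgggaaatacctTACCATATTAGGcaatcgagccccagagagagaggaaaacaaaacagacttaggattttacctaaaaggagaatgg
PPP1R12B, chr1:202474688-202474837, forward strand: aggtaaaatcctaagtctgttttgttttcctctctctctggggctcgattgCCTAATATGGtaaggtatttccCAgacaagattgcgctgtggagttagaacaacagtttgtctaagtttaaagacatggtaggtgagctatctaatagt
KCNH2, chr7:150659227-150659376, forward strand: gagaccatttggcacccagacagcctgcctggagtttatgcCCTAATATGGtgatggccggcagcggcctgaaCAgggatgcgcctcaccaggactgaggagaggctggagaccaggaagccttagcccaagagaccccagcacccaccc
ARRDC3-AS1, chr5:90699423-90699572, forward strand: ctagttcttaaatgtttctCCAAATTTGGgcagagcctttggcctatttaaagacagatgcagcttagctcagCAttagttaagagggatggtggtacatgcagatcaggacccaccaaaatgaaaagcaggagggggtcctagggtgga
TENM4, chr11:78522765-78522914, reverse strand: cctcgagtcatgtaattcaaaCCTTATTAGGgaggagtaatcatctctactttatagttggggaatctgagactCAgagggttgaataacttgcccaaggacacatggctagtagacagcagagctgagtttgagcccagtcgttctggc
The forward SH3BGRL site and the reverse SH3BGRL site overlap, and the box upstream of both starts is the same stretch of DNA, at positions 80514705 to 80514714 of chromosome X. The PPP1R12B sites also share their box. There it lies upstream of the forward start and directly after the reverse start.

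The next 3 sequences show, in capitals, the central pair and a GC box (GGGCGG, bound by SP1), AP-1 motifs (TGACTCA, bound by FOS and JUN factors) and TATA words (TATAAA). The GC box was also more frequent at proliferating intronic sites, the AP-1 motif was less frequent, and the TATA box did not differ past the threshold. The TATA word nearest to the SLC14A2 start ends close to it, and the other starts 27 bases upstream of it.
PIGL, chr17:16189914-16190063, forward strand: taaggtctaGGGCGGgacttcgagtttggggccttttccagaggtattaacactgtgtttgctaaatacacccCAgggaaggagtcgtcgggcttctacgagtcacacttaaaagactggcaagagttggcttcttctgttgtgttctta
NHSL1, chr6:138786286-138786435, forward strand: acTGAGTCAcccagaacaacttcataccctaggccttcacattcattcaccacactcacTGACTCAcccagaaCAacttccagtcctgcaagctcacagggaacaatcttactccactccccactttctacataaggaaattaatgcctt
SLC14A2, chr18:43169329-43169478, reverse strand: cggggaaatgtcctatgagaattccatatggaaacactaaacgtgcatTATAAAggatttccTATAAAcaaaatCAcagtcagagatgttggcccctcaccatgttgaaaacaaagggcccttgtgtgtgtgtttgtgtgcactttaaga

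Reads in proliferating cells numbered from 1 to 527 per site, with a median of 22 and an interquartile range of 12 to 46.25. The counts were decoded from the deposited fold, which is the authors' own value of each site. No senescent read fell on 214 sites (74.3%, Wilson 95% interval 69.0 to 79.0), 1 to 3 senescent reads fell on 45 sites, and over 3, at most 13, on 29. Only 22 sites had 100 or more proliferating reads, while 46 had fewer than 10 and 7 fewer than 5. These reads chose the list, so they are a description. The authors' fold ran from 10.04 to 10631, with a median of 473. The lowest folds belonged to STRA8 (10.04, from 109 reads against 13), CYP1B1-AS1 (10.41, from 61 against 7) and CELF4 (10.5, from 44 against 5). The list thus holds starts with a marked senescent signal beside starts with none, as the plot of reads in both states shows.

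**Figure D1:**
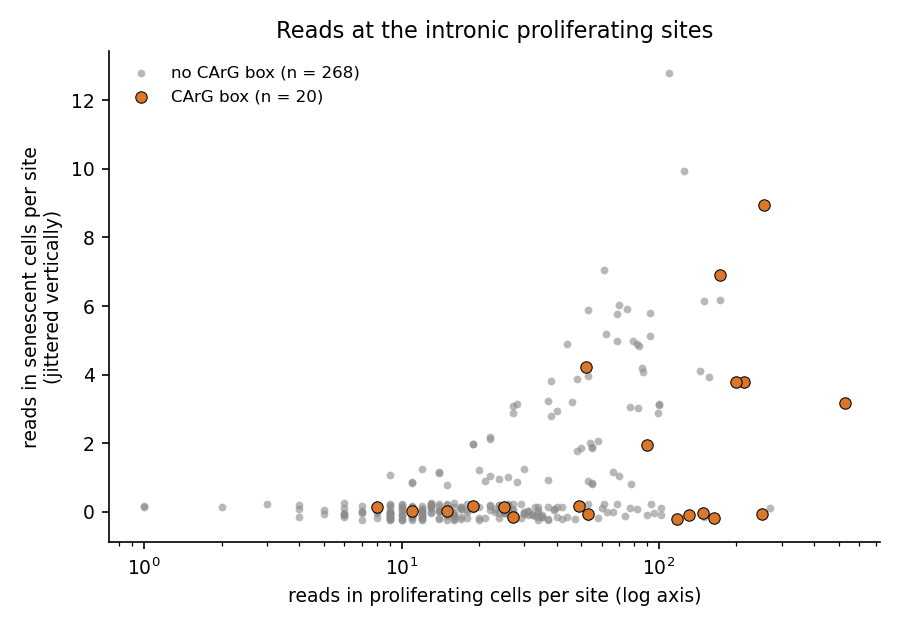
Reads per site in proliferating cells (horizontal, log axis) and in senescent cells (vertical, jittered so that equal values can be seen) at the 288 intronic sites. Orange points are the 20 sites with a CArG box in the central 200 bases, and grey points are the other 268. The CArG sites reach from 8 to 527 proliferating reads, and most of them lie in the right part of the plot.

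The deepest site lay in SYT1, which encodes the calcium sensor synaptotagmin of synaptic vesicles. It had 527 reads in proliferating and 3 in senescent cells and stood in intron 9 of 10, at 92.8% of the gene. Its neighbour on the left, at chr12:79803328-79803477, had 270 and 0 reads, and the neighbour on the right had 102 and 0. A single site in PALLD, an actin-associated scaffold of stress fibres, had 255 and 9 reads. A site in PLS3, a plastin of chromosome X that bundles actin filaments, had 251 and 0. The pair in SH3BGRL, a small gene product related to thioredoxins, had 214 and 4 reads on the reverse site and 199 and 4 on the forward site. BCL9, a Wnt cofactor, had 173 and 7 at a site 1024 bases from an annotated start, the member closest to the limit of 1 kb. PIGL, an enzyme of GPI anchor synthesis, had 172 and 6. Senescent reads were thus between 0 and 9 at each of these sites.

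The 288 sites lay in 166 host genes, of which 156 were protein-coding and 10 were long non-coding RNA genes. A single site was held by 93 hosts, 2 sites by 47, 3 by 14, and 4 or more by 12 hosts with 59 sites together. Hosts were long, with a median length of 163 kb over sites, and the host introns had a median length of 32.4 kb. The nearest annotated start of any transcript was a median of 10.4 kb away, and the 5′ end of the host gene 104 kb. Just outside the rule, by distance from a start, were sites of PCSK7 (970 bases) and TFAP4 (941).

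The sites stood close together. Joined within 10 kb, they formed 181 regions, of which 111 held 1 site, 46 held 2, 14 held 3 and 10 held 4 or more. The PLS3 region spanned 2157 bases of intron 2 and held 5 sites with 29, 251, 53, 24 and 24 reads from left to right, none with a senescent read. The region in SLC14A2, a urea transporter, spanned 2015 bases with 39, 66, 102, 40 and 25 reads. In SH3BGRL 4 sites within 986 bases had 214, 199, 26 and 42 reads. In PPP1R12B, the large subunit of myosin phosphatase, 4 sites within 712 bases had 164, 148, 149 and 27 reads. In KCNH2, a potassium channel of the heart, 4 sites within 1189 bases had 74, 131, 37 and 92 reads. The deepest site was thus an inner site of the PLS3, SLC14A2 and KCNH2 regions and an outer one in SH3BGRL and PPP1R12B.

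FIRRE, a long non-coding RNA gene of chromosome X that shapes nuclear architecture, held the most sites, 9 in 2 regions. The region nearer to the 3′ end of the gene had 16, 27, 5, 78 and 92 reads, and the other had 10, 9, 12 and 8. All 4 sites of the latter pointed the same way, in the sense of FIRRE. TENM4, a teneurin receptor of cell adhesion, held 7 sites, of which 4 lay in a region of 11834 bases with 12, 49, 15 and 11 reads. Its deepest site stood apart, at chr11:78426567-78426716, with 70 proliferating reads and 1 senescent read. LRMDA, a melanocyte gene, held 5 sites with 7, 11, 9, 53 and 8 reads. The regions of SETBP1, which binds the SET oncoprotein, with up to 96 reads, and of the recombination gene RAD51B, with up to 46, held 4 sites each. Among members that did not overlap, only 1 pair of sites, both in FIRRE, shared an exact word of 20 bases.

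**Figure D2:**
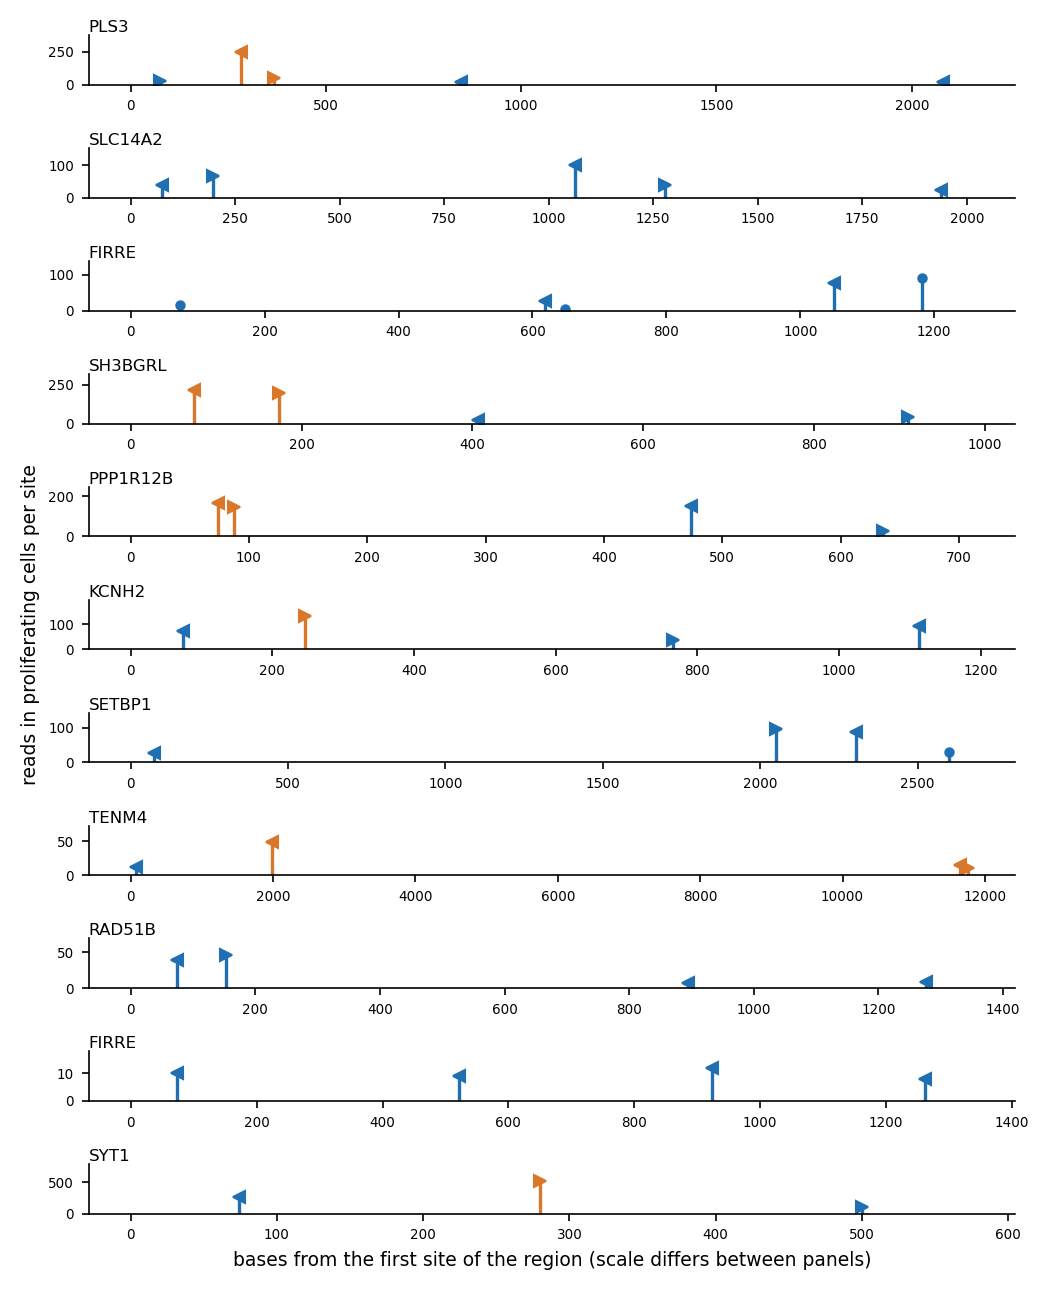
Reads in proliferating cells (vertical, a scale of its own in each panel) against distance in bases from the left edge of the region, for the 10 regions with 4 or more sites and for SYT1. Arrowheads give the direction read from the central bases, dots are sites without one, and orange marks sites with a CArG box. In SH3BGRL, PPP1R12B, PLS3 and TENM4 a leftward and a rightward start with a CArG box stand next to each other.

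Some sites that overlapped had the same reads. The 2 MIR924HG sites whose centres lay 7 bases apart both had 100 reads in proliferating and 3 in senescent cells. Of 6 pairs with centres under 50 bases apart, 2 had the same count, and the median ratio of the higher to the lower count was 1.07, with a highest of 5.4. That median ratio was 1.71 over 21 pairs with centres between 50 and 150 bases apart and 2.21 over 49 pairs at 150 to 500 bases. The strand column held + for every site, and whether reads were counted by strand is not stated in the sources used here. The reads of a forward and a reverse site that overlap may thus be partly the same. Reads of overlapping sites were therefore never summed, and the tests below used 1 site per region.

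The central base of a site carried the sequence of a start. The initiator CA, with its A on the central base, stood on the forward strand of 24.7% and on the reverse strand of 25.0% of the 288 sites, together 49.7%. At positions 5 or more bases from the centre the same sum had a median of 14.6% and lay between 10.4% and 21.9%. The senescent intronic sites had 50.7% at the centre. With any pyrimidine before any purine, 126 sites read forward, 126 reverse and 36 in neither direction, which gave 252 sites an orientation that the deposited strand column does not hold. The orientation is read from sequence and was not measured.

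**Figure D3:**
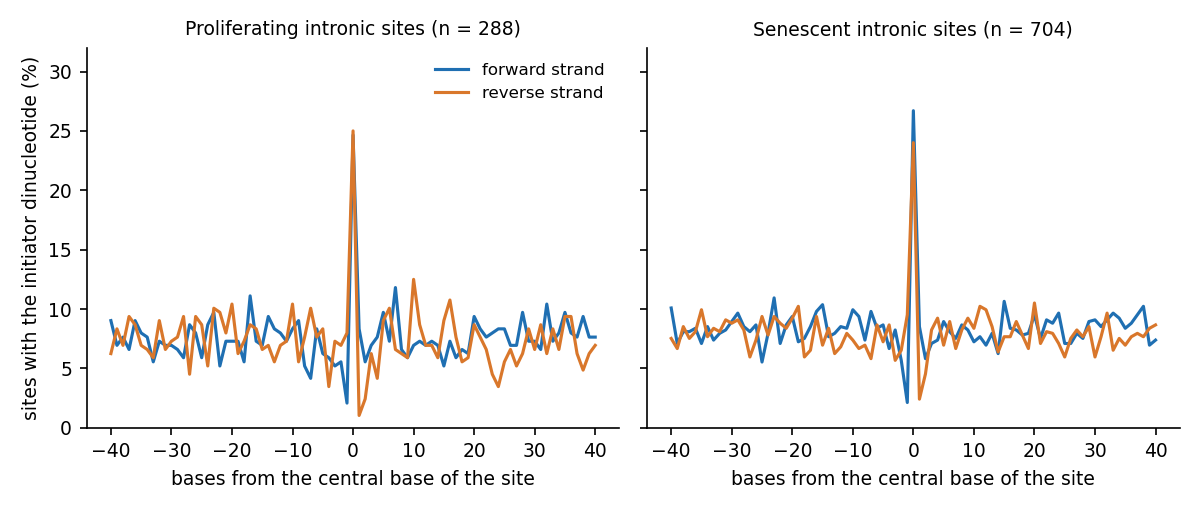
Share of sites, in percent, whose initiator dinucleotide ends at each base, by distance in bases from the central base, on the forward strand (blue) and the reverse strand (orange), for the 288 proliferating and the 704 senescent intronic sites. Both strands peak at the central base, at 24.7% and 25.0% in the proliferating panel.

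An A/T-rich stretch stood upstream of the start. In the 252 oriented sites the bases from 30 to 26 upstream were A or T in 62.2% on average, against a mean of 50.6% and a range of 40.9% to 58.3% at positions over 5 bases from the centre and outside 34 to 22 bases upstream. Nearer to the centre, the bases at 0 and 2 downstream were A or T in 76.2% and 72.2%, so the upstream stretch was not the richest. The stretch at the mirrored distance downstream had 48.7%. Senescent intronic sites had a like stretch, with 60.3% from 30 to 26 bases upstream, a mean of 53.7% elsewhere and 49.5% downstream. A TATA word (TATAAA or TATATA) started 35 to 25 bases upstream in 9 sites (3.57%), against 0 to 3 sites in 5 other stretches of that width, and in 16 of 608 oriented senescent sites (2.63%). The 9 were sites of SLC14A2 (102 reads), a readthrough gene that overlaps ITCH (90), ST8SIA6 (26), DMGDH (13), MINPP1 (12), VASH2 (10), LDB2 (9), LRMDA (7) and XXYLT1 (6), none with more than 2 senescent reads. Of these 9, 6 had 13 reads or fewer.

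Relative to the host gene, 109 oriented sites pointed in the sense direction and 115 antisense, counted where the host strand was unambiguous. By region, 62 of 140 proliferating (44.3%) and 174 of 334 senescent intronic regions (52.1%) were sense, an odds ratio of 0.731 (0.482 to 1.11). The difference did not pass (Benjamini-Hochberg adjusted Fisher's exact p = 0.197).

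Facing away from each other was the most frequent arrangement of neighbouring starts. Among 60 pairs of oriented neighbours within 500 bases, 32 were divergent, 19 convergent and 9 pointed the same way. The divergent starts were a median of 160 bases apart (interquartile range 89.5 to 219). Under 200 bases, 20 pairs were divergent, 7 convergent and 0 in the same direction, while from 200 to 500 bases 12 were divergent, 12 convergent and 9 in the same direction. Among the senescent intronic sites 96 of 129 pairs were divergent and 18 convergent, with a median divergent distance of 149.5 bases. With 1 opposite pair per region, 30 of 44 proliferating pairs (68.2%) and 83 of 95 senescent pairs (87.4%) were divergent. The odds ratio was 0.313 (0.117 to 0.819), and the difference passed by Fisher's exact test (adjusted p = 0.0301). This comparison was chosen after the data were seen, and it did not pass under 5 of 9 alternative settings, all with an odds ratio below 1.

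The CArG box separated the lists most. It lay within the central 200 bases of 14 of 181 proliferating regions (7.74%, 4.66 to 12.6) and of 1 of 432 senescent regions (0.231%, 0.0409 to 1.30). The odds ratio was 35.9 with an interval of 5.39 to 1531, and the adjusted Fisher's exact p over 14 motifs was 4.12e-06. Counted by site, 20 of 288 proliferating (6.94%) and 4 of 704 senescent intronic sites (0.568%) held it, an odds ratio of 13.0. Of all windows of 200 bases in introns of the 166 hosts, 193463 in number, 1.26% held one. The proliferating share thus stood above that of these introns, while the interval of the senescent regions, up to 1.30%, included it. The windows come from hosts of proliferating sites only and are no background for the senescent list.

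The size of the ratio rested on few senescent matches. It was between 5.82 and 31.7 under the alternatives that gave a value and kept the form of the motif, and the adjusted exact p was 0.0446 where sites with any read of the opposite state were left out. A looser form of the box, chosen after the data were seen, gave 3.48 (adjusted exact p = 0.00146).

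The 20 sites stood in 15 regions of 15 host genes. In KLHL29 the box was not at the deepest site, which leaves the 14 regions compared above. Their boxes had 17 distinct positions, of which 4 served 2 overlapping or neighbouring sites each. PALLD, PLS3 and PPP1R12B were on the list of actin and myosin regulators, TENM4, with 3 sites, and the semaphorin receptor NRP2 on that of guidance genes, and SYT1 and KCNH2 on that of channels and synaptic proteins. The others were on no list, namely BCL9, the Notch coactivator MAML1, SH3BGRL, KLHL29, RARRES1, a retinoid-responsive membrane protein gene, the readthrough gene that overlaps ITCH, and the long non-coding RNA genes CASC15 and ARRDC3-AS1. Of the 20 sites, 13 had no senescent read, and the highest senescent count was 9.

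CArG sites had many reads. The median was 104 in proliferating cells, with a lowest of 8 and a highest of 527, against 20 at the other 268 sites, and the interquartile ranges were 26.5 to 179.5 and 11.0 to 39.0. The box was present at 1 of 46 sites with under 10 reads, 3 of 109 with 10 to 24, 3 of 65 with 25 to 49 and 13 of 68 (19.1%) with 50 or more. The 3 deepest genes of the list by single sites, SYT1, PALLD and PLS3, all had one. Several sites share a box, and reads chose the list, so these values are a description without a test.

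The boxes lay upstream of the starts. Of 19 matches in oriented sites, 17 were upstream, at a median of 50.5 bases from the central base to the middle of the box. A box shared by 2 sites is counted for each, so these matches are not all separate boxes. In the SYT1 sequence shown above the distance was 61.5 bases, in BCL9 62.5, in ARRDC3-AS1 50.5 and in KCNH2 28.5. The 2 downstream matches were the box at the reverse PPP1R12B start and the downstream box of the reverse SH3BGRL site. None of the 3 oriented senescent matches was upstream (0 of 3). The plot of motif positions shows the same side for the AP-1 motif, with 22 of 25 matches upstream. The median position of all 25 was 45 bases upstream. At senescent intronic sites the AP-1 motif lay on that side too, in 95 of 115 oriented matches. Their median position was 53 bases upstream. GC boxes stood on both sides, with 18 of 29 matches upstream.

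**Figure D4:**
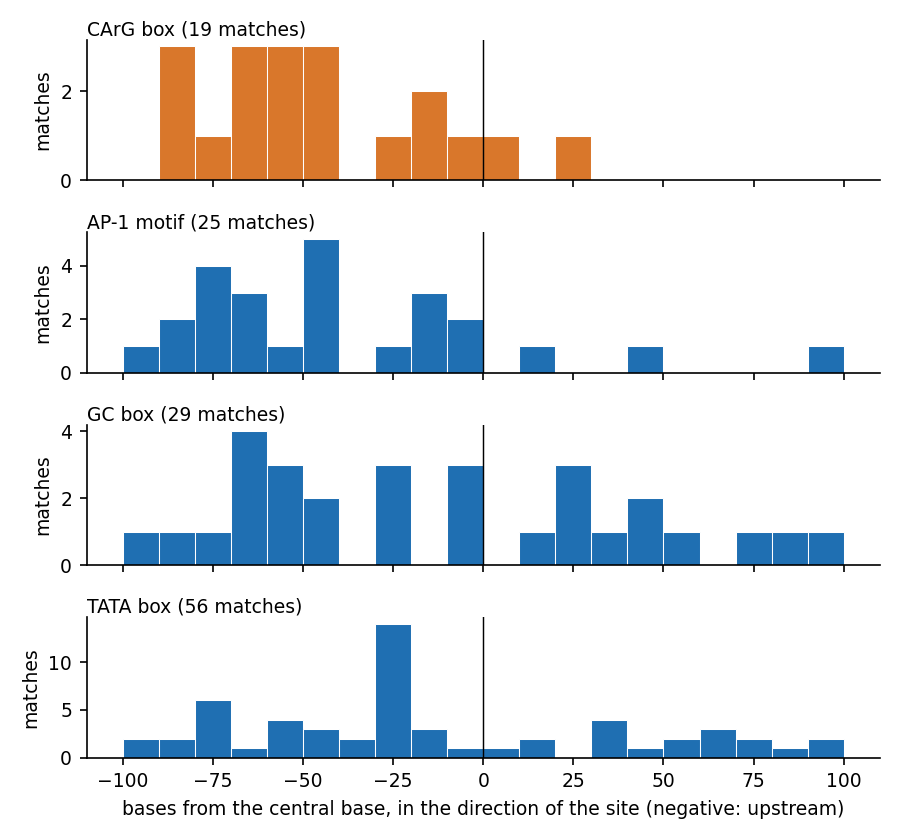
Number of motif matches by distance in bases from the central base to the middle of the motif, in the direction of the site, at oriented proliferating intronic sites (bins of 10 bases, negative is upstream). Of the CArG matches 17 of 19 and of the AP-1 matches 22 of 25 lie upstream, with a motif shared by 2 sites counted for each. TATA boxes peak in the bin from 30 to 20 bases upstream.

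Outside introns, 6 of the 112 other proliferating sites held a CArG box, and 4 of these lay in PCSK7, a proprotein convertase. Another stood in BCL9, at a forward start with 47 reads that shares its box with the intronic BCL9 site shown above. The senescent sites outside introns held 1 in 145.

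The AP-1 motif was less frequent at proliferating than at senescent intronic regions. It was present at 17 of 181 (9.39%, 5.95 to 14.5) and at 81 of 432 (18.8%, 15.4 to 22.7), an odds ratio of 0.450 (0.242 to 0.795; adjusted Fisher's exact p = 0.0169). Both shares were above the 3.09% of intron windows, which come from hosts of proliferating sites only. At a fold of 100 or more the odds ratio was 0.448 and did not pass (adjusted exact p = 0.0894), and with introns of protein-coding genes alone it was 0.498 (adjusted exact p = 0.0634). Among the 28 proliferating sites with the motif, the deepest were in FNDC8 (156 reads), STRA8 (109), NHSL1, a regulator of cell migration (84), TENM4 (70) and the prostaglandin transporter SLCO2A1 (53). Their median of 23 reads was near the 22 of sites without it. An AP-1 motif and a CArG box stood together at 1 site. By site, the AP-1 motif was at 9.72% and the CArG box at 6.94% of 288, so unrelated motifs would also meet at few sites. Whether they avoid each other was not tested.

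The GC box was more frequent, at 17 of 181 proliferating (9.39%) against 10 of 432 senescent regions (2.31%), an odds ratio of 4.36 (1.84 to 10.9; adjusted Fisher's exact p = 0.00207). It did not pass at a fold of 100 or more (adjusted exact p = 0.0894). Intron windows held it at 2.51%. Base composition moved with it. GC content of 50% or more was found at 68 proliferating regions (37.6%) and 109 senescent ones (25.2%), an odds ratio of 1.78 (1.21 to 2.62; adjusted exact p = 0.00494), which did not pass in windows of 150 bases (adjusted exact p = 0.0699). Of the 29 proliferating sites with a GC box, 24 had GC content of 50% or more. Within sites of that GC content, 22.2% of 108 proliferating and 6.63% of 166 senescent sites held a GC box, and within the remaining sites 2.78% of 180 and 1.30% of 538. The part of base composition in the GC box result was not tested beyond these values. Sites with a GC box included PIGL (172 reads), FNDC8 (156), SETBP1 (96) and the collagen gene COL27A1 (79).

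A CpG observed-to-expected ratio of 0.6 or more was rare, at 9 proliferating (4.97%) and 6 senescent regions (1.39%), with an odds ratio of 3.71 (1.16 to 12.9; adjusted exact p = 0.0175). It did not pass under 4 of the alternatives, at ratios of 2.66 to 2.87, while windows of 400 bases gave 19.8 (adjusted exact p = 0.000347). The intron windows had 3.27%.

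The other 11 motifs did not pass (adjusted p of 0.419 or more). They were searched on both strands, as given in brackets. A TATA box lay at 34 proliferating (18.8%) and 64 senescent regions (14.8%), an odds ratio of 1.33 (0.814 to 2.15), where intron windows held one at 24.8%. The motif of NF-Y, a factor of promoters (CCAAT), was at 31 and 87 regions and in 27.0% of windows. That of the C/EBP factors (TTGCNNAA) was at 22 and 42 regions and in 10.7% of windows. GATA motifs (AGATAA) were at 19 and 51 regions and in 14.4% of windows. SOX motifs (ACAATG) were at 15 and 49 regions and in 11.96% of windows. The motif of TEAD, the partner of YAP (ACATTCC), was at 12 and 20 regions and in 2.96% of windows. RUNX motifs (TGTGGTT) were at 8 and 35 regions and in 3.84% of windows, and forkhead motifs (TGTTTAC) were at 8 and 30 regions and in 3.01% of windows. The E-box (CACGTG) was at 5 and 18 regions and in 1.95% of windows. ETS motifs (CCGGAA) were at 2 and 13 regions and in 1.24% of windows, and the cyclic AMP element (TGACGTCA) was at 1 region of each list and in 0.0610% of windows. The intervals of the odds ratios of RUNX (0.206 to 1.18) and TEAD (0.636 to 3.22) both include 1.

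**Figure D5:**
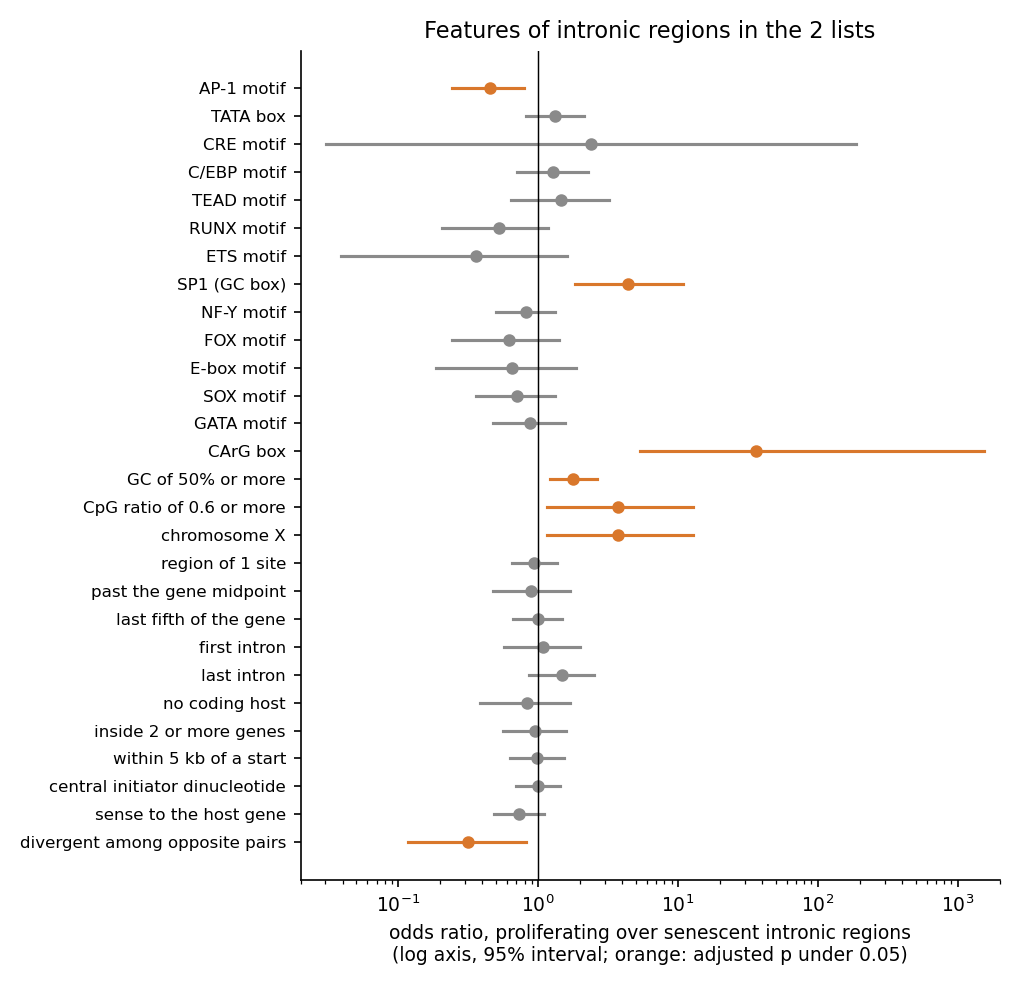
Odds ratio of each feature, proliferating over senescent intronic regions (log axis), with its 95% interval and with 1 site per region of 10 kb. Orange marks an adjusted p under 0.05. The CArG box (35.9), the GC box (4.36), composition and chromosome X lie right of 1, and the AP-1 motif (0.450) and divergent pairs (0.313) lie left of it.

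Chromosome X held 25 of the 288 sites (8.68%) in 9 regions, as many sites as chromosome 2 with 13 regions. By region the share was 9 of 181 (4.97%) against 6 of 432 senescent regions (1.39%), an odds ratio of 3.71 (1.16 to 12.9; Fisher's exact p = 0.0175). It did not pass with protein-coding annotation (exact p = 0.0702) or over 5 kb from starts (exact p = 0.0647). FIRRE, PLS3 and SH3BGRL gave 18 of the 25 sites, and 4 of the 20 CArG sites lay on this chromosome. Chromosome 3 held 24 sites in 19 regions and chromosome 1 held 23 in 17.

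The place within the gene did not differ past the threshold when regions were compared. Past the gene midpoint lay 151 of 169 proliferating (89.3%) and 360 of 398 senescent regions (90.5%), an odds ratio of 0.886 (0.476 to 1.70). In the last 20% of the gene lay 55 and 130 (0.995, 0.663 to 1.48), in the first intron 19 of 163 and 41 of 377 (1.08, 0.572 to 1.98), and in the last intron 29 and 48 (1.48, 0.862 to 2.52). All adjusted exact p were 0.561 or more. Counted by site, the last intron held 42 of 247 proliferating and 64 of 618 senescent sites, which passed (odds ratio 1.77, adjusted exact p = 0.0334). A single site made up 111 of the 181 and 271 of the 432 regions (odds ratio 0.942, exact p = 0.784). That ratio was 0.545 at a fold of 100 or more (exact p = 0.00797) and 0.506 where sites with any opposite-state read were left out (exact p = 0.00278), and both passed. Both settings left out sites before the rest were joined, which can itself turn a larger region into a single site. They kept 73.6% and 74.3% of proliferating but 56.5% and 55.7% of senescent intronic sites. The 2 ratios therefore cannot tell a difference in clustering from this loss of sites. Regions within 5 kb of an annotated start numbered 39 and 94 (exact p = 1). No protein-coding host was found for 12 and 34 regions, and 27 and 67 lay inside 2 or more genes (adjusted exact p = 0.903 for both). Any selection of sites along genes before deposit is not stated in the sources used here.

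Within the proliferating list, the intronic sites were set against the other sites. A TATA box lay at 34 of 181 intronic regions (18.8%) and 4 of 75 other regions (5.33%), an odds ratio of 4.09 (1.38 to 16.5; adjusted Fisher's exact p = 0.0245). It did not pass without chromosome 1 (3.42, adjusted exact p = 0.0909), over 5 kb from starts (2.46, 0.110) or in windows of 400 bases (1.65, 0.199). Windows of the host introns held a TATA box at 24.8%, so the share of the intronic regions (13.8 to 25.1%) was not above theirs. Median GC content was 46.5% at intronic and 51.5% at other sites, and its part in the TATA difference between these regions was not tested. AP-1 motifs were at 17 and 9 of these regions (adjusted exact p = 0.505), GC content of 50% or more at 37.6% and 42.7% (adjusted exact p = 0.505), and a CpG ratio of 0.6 or more at 4.97% and 13.3% (adjusted exact p = 0.0661). Counted by site, both were lower at intronic sites, GC content with an odds ratio of 0.485 and the CpG ratio with 0.308 (adjusted exact p = 0.0024 for each). The CpG difference passed under 6 alternatives in all, with odds ratios of 0.244 to 0.308.

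The lists of genes by function were chosen with earlier results of these data known, and their counts are a description. Of the 14886 coding genes longer than 10 kb, 1.08% held a proliferating intronic site. Among 42 guidance and teneurin genes of that length 4 did (9.52%), namely TENM4, NRP2 (4 sites, up to 24 reads), the latrophilin ADGRL2 (1 site, 26 reads) and the Slit receptor ROBO1 (1 site, 3 reads). Among 50 genes of ion channels, ion transporters and synaptic proteins 5 did (10.0%). They were SYT1, KCNH2, SLC14A2, which carries urea and not an ion, the calcium channel CACNA1C (38, 86 and 4 reads) and the sodium-proton exchanger SLC9A4 (18 reads and 1 read). Genes with a site on the list of actin and myosin regulators were PALLD, PLS3 and PPP1R12B (6.82% of 44). The same 3 lists held 4, 6 and 2 genes with a senescent intronic site. Over all coding genes, 162 held a proliferating and 354 a senescent intronic site, so like counts on a list are not like shares. The genes of these 3 lists were also long and partly chosen for their sites.

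Genes of the matrix list with a site (6.25% of 48) were LTBP2, GPC6 and FBLN1. LTBP2, which binds fibrillin, had 37 and 11 reads, and the glypican GPC6 had 14 and 18 reads. FBLN1, which encodes fibulin 1, had 9 reads and 1 senescent read. The collagen gene COL27A1 (79 reads and 5 senescent reads) held a site too but was not on that list. FBLN1 was the only fibroblast marker of 11 with a site, and none of 18 markers of other cell types held one (0 of 18). Factors of the AP-1, RUNX, TEAD, C/EBP, NF-kB and ETS families with a site were ETV6 (22, 12 and 32 reads), FLI1 (35) and RUNX2 (29), 8.57% of 35. The inhibitory SMAD6 of TGF-beta and BMP signalling (12 and 77 reads) was the only such gene of 33, and the histone deacetylase HDAC4 (13 reads) the only chromatin regulator of 50. No gene on the list of secreted factors of senescence (0 of 31) or on that of the cell cycle and DNA replication (0 of 51) held a site. With 1.08% of all coding genes over 10 kb holding a site, lists of these sizes can hold none without differing from other genes. CDK7 (15 reads) and DSN1 (37 reads and 3 senescent reads) held a site and were on neither list. A site inside a gene does not say which gene it acts on.

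Both lists met in 14 host genes, of the 166 with proliferating and 363 with senescent intronic sites. For scale, 354 of all coding genes held a senescent intronic site, and 14886 coding genes were longer than 10 kb. Hosts of proliferating sites were much longer than that limit, with a median of 163 kb over sites. No share was computed for genes of like length, so whether 14 is few or many was not tested. The closest approach was in NXN, a redox regulator, where 9.61 kb separated proliferating sites with up to 82 reads from senescent sites with up to 36. In RAD51B the distance was 15.7 kb, from 4 proliferating to 9 senescent sites. In SYT1 a senescent site with 13 reads lay 16.9 kb from the proliferating cluster, and in NRP2 the distance was 23.3 kb. In PALLD, 39.6 kb separated the site with 255 reads from a senescent site with 53. In the other 9, KLHL29, MAP3K7CL, ATXN1, MARCHF1, GPC6, HIVEP3, FRMD4A, CACNA1C and CAMTA1, the distance was 43.1 to 350.7 kb. The lowest fold of an intronic site was 10.04 in the proliferating and 10.2 in the senescent list, so no site could be in both. Separate places in these genes therefore follow from how the lists were made, and only the distances are a description.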

How the data were processed

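The authors deposited 4 site lists, of which 2 are distinct, in hg19 coordinates per the file names. The submitters' processing notes name HOMER, bedtools 2.27.1-65, cutadapt 2.10, SAMtools 1.1 and BWA 0.7.10 without their roles. The calling of sites, its limits and the libraries used are not given in the sources used here. The value of a site is the authors' deposited fold, the ratio of proliferating to senescent signal or its inverse. All folds equalled whole reads times 39.4 (proliferating) or 32.8 (senescent), with a pseudocount of 1, within 1e-06, and each matched 1 pair of read counts only. The total depth is unknown. PCR reads without molecular identifiers are not independent molecules.

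Positions were set against GENCODE 44 on GRCh37 and sequence was read with pysam 0.24.0. Sites of 1 list within 10 kb formed a region, represented by its deepest site. Features were searched in 200 bases, and shares were compared by two-sided Fisher's exact tests (SciPy 1.17.1) with conditional odds ratios, 95% intervals and Benjamini-Hochberg adjustment within families at 0.05. Named genes were the hosts with the most sites or reads, gene list members, hosts of both lists and hosts of motif sites or large regions. Hosts of CArG, GC box and TATA sites beyond these were named after their values were seen. The members and gene lists were chosen with earlier results of these data known. The procedures were tested on simulated data.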

Additional observations from a re-analysis of the deposited data

How the results depend on the processing

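No paired analysis was possible because each site has a single deposited value, which also kept any replicate from being left out. The planned comparison of repeats was not run, because the reference is not soft-masked. Depth limits sites of few reads, and regions are few for rare motifs. Over all results and alternatives, a call was lost for 18 values and gained for 10, 39 values changed direction, 1 count moved and 142 values kept call and direction, though not always their size (the CArG box fell to 5.82 and the CpG ratio rose to 19.8 in windows of 400 bases). Alternatives for the central dinucleotide, the sense share and divergent pairs were chosen after seeing the data. Values below are odds ratios, and the causes of these changes were not tested. The number of intronic sites was 223 to 297 under other annotation rules, and the number of regions 174 to 205 under other joining distances. The CArG box passed under all alternatives run. Without chromosome 1 it gave no finite ratio, at 12 of 164 against 0 of 406 regions (adjusted exact p = 3.35e-06).

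Calls were lost against senescent sites as follows. With a fold of 100 or more, AP-1 was 0.448, the GC box 3.67, the CpG ratio 2.68 and divergent pairs 0.253, and 1 motif passed in place of 3. With no opposite-state read, the CpG ratio was 2.67 and divergent pairs 0.463. With protein-coding annotation, AP-1 was 0.498, chromosome X 2.77 and divergent pairs 0.309. Over 5 kb from starts, the CpG ratio was 2.87, chromosome X 2.87 and divergent pairs 0.309. Joined within 500 bases, the CpG ratio was 2.66. In windows of 150 bases, GC content was 1.41. Divergent pairs within 200 bases gave 0.297. Against other proliferating sites, the TATA box was 2.46 over 5 kb from starts, 3.42 without chromosome 1 and 1.65 in windows of 400 bases.

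Calls were gained for single-site regions at a fold of 100 or more (0.545) and with no opposite-state read (0.506), and for the last intron over all sites (1.77). The settings of the single-site calls kept a smaller share of the senescent than of the proliferating sites. Against other proliferating sites they were gained for GC content over all sites (0.485) and for the CpG ratio over all sites (0.308), joined within 500 bases (0.285), at a fold of 100 or more (0.248), with no opposite-state read (0.246) and in windows of 150 bases (0.286) and 400 bases (0.244).

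Changes of direction were all between values that did not pass. Single-site regions were 1.03 with protein-coding annotation and 1.06 over 5 kb from starts. Past the midpoint was 1.09 over 5 kb from starts and 1.02 without chromosome 1. The last 20% of the gene was 1.17 over all sites, 1.06 joined within 500 bases, 1.02 at a fold of 100 or more, 1.04 over 5 kb from starts and 1.04 without chromosome X. The first intron was 0.975 over 5 kb from starts and 0.923 without chromosome X. No coding host was 1.45 over all sites, 1.12 at a fold of 100 or more and 1.11 with no opposite-state read. Inside 2 or more genes was 1.001 joined within 500 bases, 1.03 at a fold of 100 or more, 1.00 with no opposite-state read, 1.09 with protein-coding annotation, 1.01 over 5 kb from starts and 1.11 without chromosome 1. Within 5 kb of a start was 1.14 over all sites, 1.03 joined within 500 bases, 1.04 at a fold of 100 or more, 1.04 with no opposite-state read and 1.07 with protein-coding annotation. The central dinucleotide was 0.959 over all sites, 0.981 joined within 500 bases, 0.729 at a fold of 100 or more, 0.754 with no opposite-state read, 0.927 with protein-coding annotation, 0.943 over 5 kb from starts, 0.971 without chromosome X and 0.994 without chromosome 1. The sense share was 1.103 at a fold of 100 or more and 1.11 with no opposite-state read. AP-1 against other proliferating sites was 1.02 with protein-coding annotation, 1.21 over 5 kb from starts, and 1.04 and 1.34 in windows of 150 and 400 bases.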
